A study of Homo sapiens with 6 samples.

Results

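A group of 6 metallocarboxypeptidase genes, CPA4, CPA6, CPD, CPE, CPM and CPQ, was taken by name from the 20020 genes of the count table, and 5 of the 6 had enough reads to enter the fit of 12925 genes. The group was put together with CPA4's values in CAD-KO2+IR and sgVec+IR known, so the differences of the members between these groups are given as a description, with no test. The study asked how loss of CAD, the caspase-activated DNase encoded by DFFB, changes the response of colorectal cancer cells to ionizing radiation. HCT116, a human colorectal carcinoma line, was sequenced in 3 libraries of CAD-KO2+IR (CAD knockout made with a guide RNA against CAD) and 3 libraries of sgVec+IR (vector control). By the study's account the cells were collected 24 h after 8 Gy, so both groups were irradiated, and none of the 6 sequenced samples was unirradiated. Nothing in the labels says whether the knockout line is a single clone or whether the 3 libraries of a group came from separate cultures, so effects of the line and of CAD loss cannot be told apart, and the p-values measure only the spread between these libraries, which may be technical.

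Metallocarboxypeptidases hold a zinc ion in the active site and remove single amino acids from the C-terminal end of peptides and proteins. Enzymes of the A type, such as CPA4 and CPA6, take off hydrophobic residues and are secreted as proenzymes with an inhibitory prodomain. CPD, CPE and CPM belong to a second subfamily, made without such a prodomain, that takes off C-terminal arginine or lysine: CPE trims peptide hormones in secretory granules, CPD does so in the trans-Golgi network of most cells, and CPM is held at the cell surface by a lipid anchor. CPQ belongs to another zinc peptidase family and acts as a dipeptidase in lysosomes and plasma. CPA4 was first described as a gene induced by histone deacetylase inhibitors in prostate cancer cells.

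Normalised counts are the reads of a gene per 1000000 reads of its library, after TMM scaling. Library totals ran from 14032994 to 19574144 counts. sgVec+IR replicate 3 stood apart: 7561 genes had no count in it against 4577 to 5232 in the other libraries, and Pearson's r of its log2 values with the other sgVec+IR libraries was 0.886 and 0.890, against 0.993 between those. CAD-KO2+IR replicate 2 stood apart less, with r of 0.969 and 0.975 to its own group against 0.993. DFFB, the targeted gene, had 185, 192 and 217 counts in CAD-KO2+IR and 357, 335 and 297 in sgVec+IR (log2 fold change −1.02, SE 0.19; adjusted p = 0.550 by edgeR's quasi-likelihood test). Its level was lower in each knockout library than in each control, and counts over the whole gene do not show whether the remaining RNA is functional. Of 11 colorectal epithelial markers 8 entered the fit, 2 higher and 6 lower with 0 called. KRT8, KRT18, KRT19, EPCAM and CDH1 were expressed. CDH1 was lower in every knockout library than in every control (log2 fold change −0.54, SE 0.15) and KRT18 was higher in the same way (0.31, SE 0.21). LGALS4, VIL1 and CDX1 had 0 to 5 counts, and the 6 blood cell markers summed to 0 to 1.16 normalised counts in a library. The 6 fibroblast markers summed to 25.9 to 39.8 normalised counts in CAD-KO2+IR and 11.99 to 48.9 in sgVec+IR. Nearly all of this was COL1A1, with 25.5 to 38.7 and 10.9 to 47.8. DCN and LUM were at 0, and COL1A2 had 0 or 1 count in a library. The 4 endothelial markers summed to 1.002 to 2.22 in CAD-KO2+IR and 4.16 to 6.07 in sgVec+IR, with VWF alone fitted, at −1.77, and not called. Their part in the differences of the members was not tested.

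CPA4 (ENSG00000128510.12) lies on chromosome 7, at 130293134 to 130324180 of GRCh38 on the plus strand in GENCODE 29, and its longest coding transcript has 11 exons and encodes 421 amino acids. No other gene of the annotation overlaps it. Its RefSeq promoter window, 250 bases before to 50 after the start at chr7:130292911-130293210 (GRCh38.p14), is shown because CPA4 is the member with the largest difference, and its motifs are compared with those in the windows of the other members. Capitals mark a TATA box and 2 AP-1 motifs:
CPA4: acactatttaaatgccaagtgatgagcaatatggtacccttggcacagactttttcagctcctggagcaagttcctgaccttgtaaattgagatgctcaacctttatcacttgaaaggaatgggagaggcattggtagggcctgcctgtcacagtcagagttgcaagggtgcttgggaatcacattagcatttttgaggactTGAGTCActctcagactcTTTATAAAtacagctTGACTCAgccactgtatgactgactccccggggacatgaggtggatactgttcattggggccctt

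The motifs searched, on both strands, were the TATA box with the letters TATAAA, the site of AP-1 (the FOS and JUN dimer) with the letters TGANTCA, the GC box with the letters GGGCGG, and CCAAT. In the CPA4 window TATAAA began 28 bases before the start, overlapped by the same motif on the opposite strand beginning at 30 bases before, and the 2 AP-1 motifs began 48 and 15 bases before it. GGGCGG was not found, and CCAAT was present on the opposite strand at 2 places. Of 35116 RefSeq promoter windows of the same length, 11.5% held TATAAA, 7.71% held TGANTCA and 0.515% held 2 or more TGANTCA. Of these windows, 27 held TATAAA together with 2 or more TGANTCA (0.0769%). This combination is the one that the CPA4 window itself holds, so its percentage is a description and its rarity is no test. Whether these motifs have a part in the difference of CPA4 was not tested. The single CPE window held none of the 4 motifs, the 3 CPM windows held neither TATAAA nor TGANTCA, and of the 2 CPD windows 1 held TGANTCA and neither held TATAAA. A match is a run of letters in the reference, and binding was not measured.

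CPA4 had 1160, 1123 and 1298 counts in the 3 CAD-KO2+IR libraries and 344, 248 and 326 in the 3 sgVec+IR libraries. Scaled to library size, these were 62.9, 59.2 and 73.9 normalised counts against 21.0, 17.0 and 23.0. All 3 knockout libraries lay above all 3 controls, and the lowest of them was 2.58 times the highest control. The means were 65.3 ± 7.65 and 20.3 ± 3.07 normalised counts (SD, n = 3 each), the fitted log2 fold change was 1.68 (SE 0.20), which is 3.21-fold, and this placed CPA4 at rank 37 of the 12925 genes ordered from the highest log2 fold change. These are the values that chose the group. In RNA from a whole culture, more cells with a transcript and more transcript per cell cannot be told apart.

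**Figure D1:**
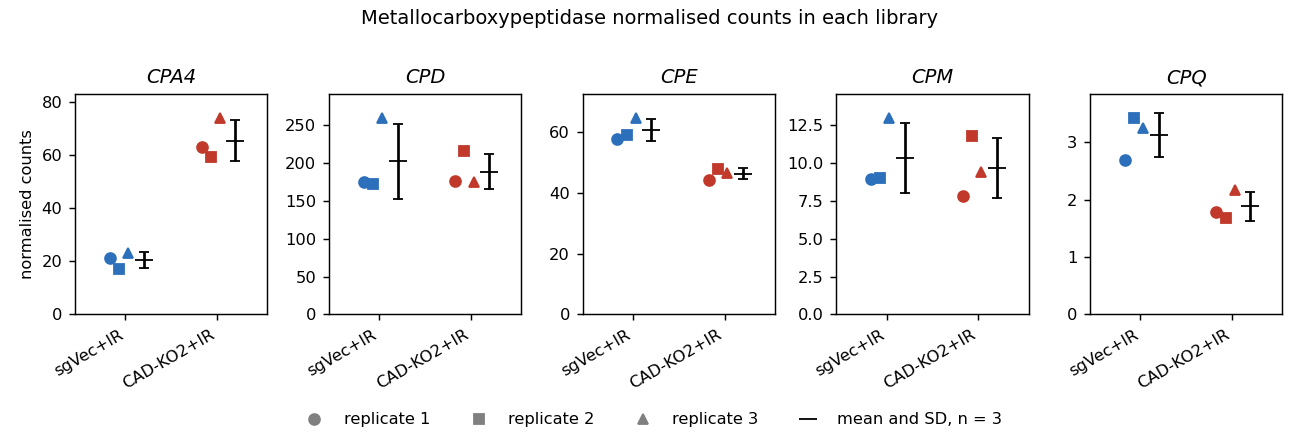
Normalised counts (linear axes from 0) of the 5 members that entered the fit, in each library of sgVec+IR (blue) and CAD-KO2+IR (red), with marker shapes for the replicate number and black bars for mean and SD (n = 3). CPA4 was higher in all 3 knockout libraries, CPE and CPQ were lower in all 3, and CPD and CPM overlapped, with their highest values in sgVec+IR replicate 3 and CAD-KO2+IR replicate 2.

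CPA6 (ENSG00000165078.13, chromosome 8, 67422038 to 67746385, minus strand), the other A-type member, an enzyme of the extracellular matrix known for its part in familial epilepsy, had 1 count in all 6 libraries together, in sgVec+IR replicate 2. Its level was below what 3 counts over a group would give, 0.0546 normalised counts in CAD-KO2+IR and 0.0665 in sgVec+IR, so no difference was detectable at this depth. These floors cover counting error only.

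CPE (ENSG00000109472.14, chromosome 4, 165361194 to 165498320, plus strand), the prohormone-trimming enzyme, had 44.4, 47.9 and 46.5 normalised counts in CAD-KO2+IR and 57.9, 59.1 and 64.7 in sgVec+IR. It went the other way from CPA4: every knockout library lay below every control. The means were 46.3 ± 1.78 and 60.5 ± 3.64 normalised counts (SD, n = 3 each) and the log2 fold change was −0.39 (SE 0.15). CPE also varied least among replicates of the 5 fitted members, with a coefficient of variation of 3.85% in CAD-KO2+IR and 6.01% in sgVec+IR.

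CPD (ENSG00000108582.12, chromosome 17, 30378905 to 30469989, plus strand), with 21 exons and 1380 amino acids the longest member, had 176, 216 and 175 normalised counts in CAD-KO2+IR and 175, 173 and 260 in sgVec+IR. The groups overlapped, and the highest values were those of the 2 libraries that stood apart. The log2 fold change was −0.10 (SE 0.21). Without sgVec+IR replicate 3 it was 0.12, and the 3 knockout libraries then lay above the remaining 2 controls.

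CPM (ENSG00000135678.12, chromosome 12, 68842197 to 68971570, minus strand), the surface enzyme that cleaves kinins and epidermal growth factor, had 7.80, 11.8 and 9.40 normalised counts in CAD-KO2+IR and 8.93, 9.04 and 13.0 in sgVec+IR. The groups overlapped, the log2 fold change was −0.09 (SE 0.27), and CAD-KO2+IR replicate 2 and sgVec+IR replicate 3 were again the highest of their groups. The 3′ end of CPM meets that of MDM2, the p53-degrading ubiquitin ligase, on the opposite strand: the gene bodies share 8490 bases and their annotated exons share 133 bases, 1.77% of the CPM exon length. MDM2 had 319, 432 and 343 normalised counts in CAD-KO2+IR and 333, 343 and 509 in sgVec+IR, with a log2 fold change of −0.11 (SE 0.22).

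Library by library, the CPM gene had between 2.45% and 2.74% as many counts as MDM2, while the levels of both genes differed by more than 1.5 times between libraries. The 6 ratios were 2.45%, 2.72% and 2.74% in CAD-KO2+IR and 2.68%, 2.64% and 2.55% in sgVec+IR. Whether the counting used strand is not given in the sources used here, and without it reads of the 2 genes in the shared stretch cannot be told apart. The pattern was not particular to CPM. CPD, on chromosome 17 with no overlapping gene, was also highest in CAD-KO2+IR replicate 2 (216 normalised counts) and sgVec+IR replicate 3 (260). The share of CPM reads that came from MDM2 transcripts was not tested.

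CPQ (ENSG00000104324.16, chromosome 8, 96645227 to 97149654, plus strand), the lysosomal and plasma dipeptidase, was near the lower end of what could be fitted, with 33, 32 and 38 counts in CAD-KO2+IR and 44, 50 and 46 in sgVec+IR. After normalisation these were 1.79, 1.69 and 2.16 against 2.69, 3.42 and 3.24. Every knockout library was below every control, and the log2 fold change was −0.73 (SE 0.31). Of the 5 fitted members, CPQ had the largest SE.

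Of the 5 fitted members, 1 was higher without overlap of the groups (CPA4) and 2 were lower (CPE and CPQ), where 5.23% of all tested genes were higher and 5.01% lower in this way. Without sgVec+IR replicate 3, CPD joined CPA4, and the background then rose to 22% higher and 23.7% lower. At an adjusted p under 0.05 and a fold of at least 1.5, edgeR called none of the members, and among all tested genes it called 1 higher (0.00774%) and 3 lower (0.0232%), with 99 higher and 183 lower at an unadjusted p under 0.05 and the same fold. DESeq2 with these thresholds called 20 of 16728 genes higher (0.12%) and 21 lower (0.126%), CPA4 among the higher and no other member. Nothing is read from these counts, since the members were chosen on this contrast.

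**Figure D2:**
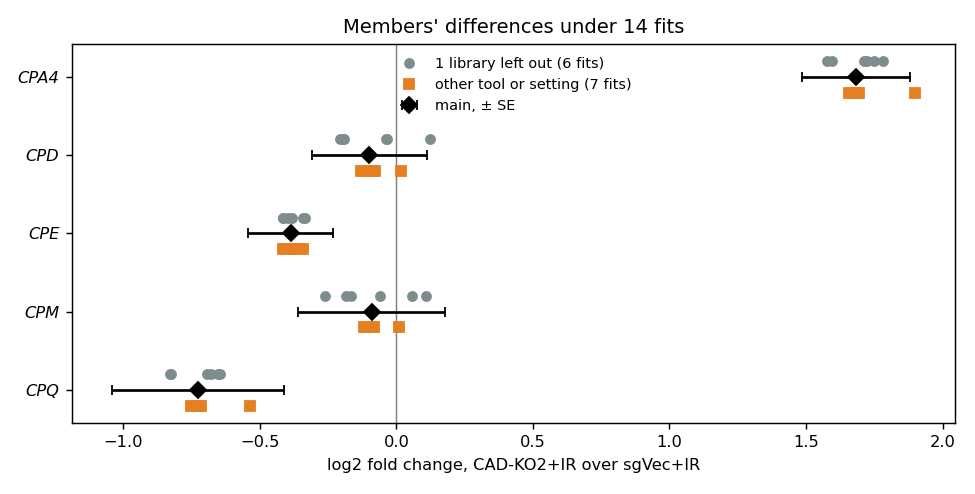
Log2 fold change (CAD-KO2+IR over sgVec+IR) of each fitted member: black diamonds for the reported value with its SE, grey points for the 6 fits that each left out 1 library, orange squares for 7 other tools or settings. CPA4 ran from 1.58 to 1.90, CPE from −0.42 to −0.34 and CPQ from −0.83 to −0.54, and CPD and CPM lay on both sides of 0.

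Levels were compared between genes per kilobase of annotated exon. In sgVec+IR the order was CPE (20.5 ± 1.23 normalised counts per kilobase), CPD (16.2 ± 3.98), CPA4 (5.14 ± 0.775), CPM (1.37 ± 0.306) and CPQ (0.902 ± 0.110; SD, n = 3 each). The ranges of CPE and CPD overlapped, and at every later step the ranges did not overlap. In CAD-KO2+IR, CPA4 stood first at 16.5 ± 1.93, beside CPE at 15.6 ± 0.602 and CPD at 15.1 ± 1.85, and these 3 overlapped. CPM (1.28 ± 0.264) and CPQ (0.544 ± 0.0726) followed, each apart from its neighbours.

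CPA4 was set among 31 genes, the members and 25 related genes, not all of which encode peptidases (QPCT and QPCTL do not). By level per kilobase CPA4 ranked 7, 7 and 6 in the sgVec+IR libraries and 1, 3 and 1 in CAD-KO2+IR. Its share of the summed level per kilobase of these genes was 6.89%, 5.34% and 6.65% in sgVec+IR and 19.0%, 16.6% and 20.9% in CAD-KO2+IR. The share of CPE was 25.4%, 24.9% and 25.04% in sgVec+IR and 17.9%, 17.9% and 17.6% in CAD-KO2+IR. Among these 31 genes, CPE ranked 1 in the 3 control libraries and CPA4 in 2 of the 3 knockout libraries. Per kilobase of the longest coding transcript, CPA4 again ranked 1 in 2 knockout libraries, whereas CPD (27.7) stood above CPE (26.7) in sgVec+IR replicate 3. A share falls when another gene's level goes up, so the shares are not independent of each other.

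The 25 related genes gave no called gene in either direction. Of these, 7 entered the fit, 4 higher and 3 lower, with a median log2 fold change of 0.05 (all genes −0.01), and 18 did not, 6 of them with no count at all. The highest was NAALAD2, a peptidase of N-acetylated acidic dipeptides, at 0.89 (SE 0.47) with 33, 63 and 39 counts against 31, 19 and 10. The lowest was CPXM1, a family member without catalytic activity, at −0.99 (SE 0.91) with 22, 9 and 9 counts against 29, 37 and 0. For both, sgVec+IR replicate 3 was the lowest library. The tubulin-trimming enzymes AGTPBP1 and AGBL5 were at 0.20 (SE 0.21) and −0.12 (SE 0.19), and the A-type enzyme genes CPA1 of the pancreas, CPA3 of mast cells and CPA5 had 0 or 1 count in each library.

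Enzymes that do the same trimming by a serine mechanism were expressed and were not called. All 4 entered the fit, from −0.21 (SE 0.27) for PRCP, the lysosomal prolyl carboxypeptidase, to 0.10 (SE 0.18) for SCPEP1, with a median of −0.06. The 2 genes of carboxypeptidase A inhibitors were too low to fit: LXN, latexin, had 1, 4 and 0 counts in CAD-KO2+IR and 1, 7 and 0 in sgVec+IR, and RARRES1, a relative of latexin, had 5, 4 and 4 against 0 in each control.

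Genes that work with CPE and CPD in prohormone processing gave no call among 7 fitted of 14 listed. Of the 7, 1 was higher and 6 were lower, with a median log2 fold change of −0.09, from PCSK4, a convertase of germ cells, at −0.90 (SE 0.59) to PCSK7, a convertase of the Golgi, at 0.51 (SE 0.45). PCSK4 had 50, 18 and 41 counts against 67, 83 and 18. PCSK7 had 44.8, 29.3 and 48.9 normalised counts against 38.7, 36.5 and 11.1. In both genes CAD-KO2+IR replicate 2 and sgVec+IR replicate 3 were the lowest of their groups. PAM, which amidates peptides after CPE has trimmed them, was at −0.33 (SE 0.15) and was lower in every knockout library than in every control. The neuroendocrine convertases PCSK1 and PCSK2 and the granins CHGA and CHGB had 0 to 7 counts. SCG2, another granin, had 158 to 211 counts in a library and a log2 fold change of −0.10 (SE 0.19).

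Among 12 listed substrates of carboxypeptidases and their receptors, 7 entered the fit, 4 higher and 3 lower, and none was called. Their median was 0.30 (all genes −0.01), but C5AR2, at the median, and EGF and C3 had no count in sgVec+IR replicate 3. C5AR1 was lower in every knockout library than in every control, at −0.22 (SE 0.23). EGF, whose C-terminal residue CPM removes, was the highest at 0.56 (SE 0.73), from 26, 45 and 26 counts against 26, 28 and 0. BDKRB2, the bradykinin receptor, was the lowest at −0.81 (SE 0.75), from 44, 27 and 32 counts against 85, 62 and 3. EGFR, the receptor of EGF, was at 0.45 (SE 0.14) and was higher in every knockout library than in every control (adjusted p = 1.0 by edgeR's quasi-likelihood test, unadjusted 0.0175).

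The genes around CPA4 had smaller differences than CPA4 or too few reads to fit. CPA5, another A-type gene, at 51.7 kilobases from the lower coordinate of CPA4 to its own, had 1, 0 and 1 counts against 1, 0 and 0. The nearest tested genes, TMEM209 at −128 kilobases and CEP41 at 101 kilobases, had log2 fold changes of 0.12 (SE 0.29) and −0.13 (SE 0.20). Over the 5 nearest tested genes on each side the median was 0.02, with 5 higher, 5 lower and 0 called, from −0.55 (SE 0.30) for COPG2 to 0.71 (SE 0.77) for KLF14. COPG2 had 500, 647 and 505 counts against 570, 473 and 924, and KLF14 had 24, 18 and 14 against 15, 13 and 0. For COPG2 sgVec+IR replicate 3 was the highest library, and for KLF14 the lowest.

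**Figure D3:**
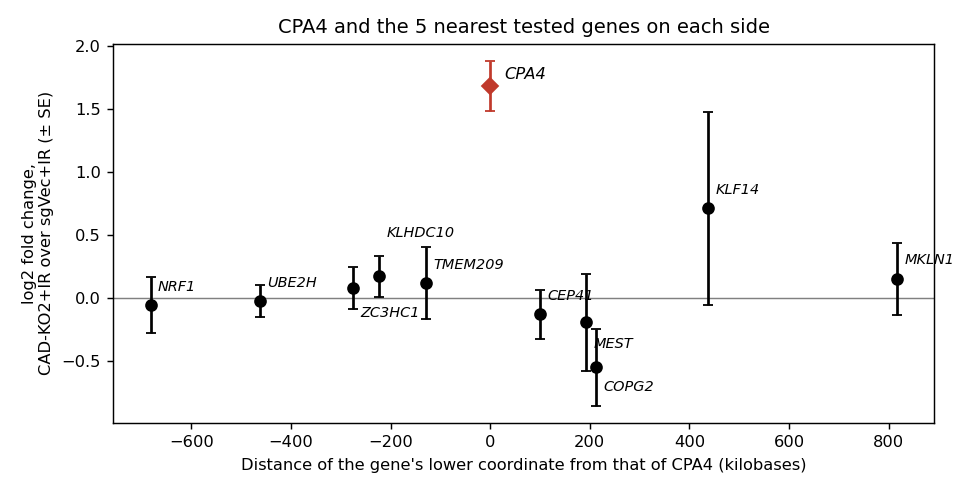
Log2 fold change (CAD-KO2+IR over sgVec+IR, bars are SE) of CPA4 (red diamond) and of the 5 nearest tested genes on each side (black), against the distance of each gene's lower coordinate from that of CPA4 in kilobases. CPA4 was at 1.68, and the 10 neighbours lay between −0.55 and 0.71.

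The 10 nearest tested genes of CPD, CPM and CPQ had medians of 0.07, 0.03 and 0.02. Those of CPE had a median of −0.24, with 9 of 10 lower and 0 called, where 6711 of all 12925 tested genes were lower. The 10 genes around CPE ranged from −1.50 (SE 0.23), for the annexin gene ANXA10, to 0.0003, for KLHL2, whose protein is an adaptor of a ubiquitin ligase. The farthest of them lay 2996 kilobases away. ANXA10, with 16.8 against 47.6 normalised counts, was singled out after its value was seen.

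The genes whose pattern over the 6 libraries was most like that of CPA4 were KLF6, DCLK1, ZNF578, TSTD2 and PIP5K1A, with Pearson's r of 0.992, 0.985, 0.978, 0.977 and 0.975 on log2 normalised counts. These r are descriptions over 6 libraries that fall into 2 groups, and 38 of 12924 genes reached 0.95. By Spearman's rho KLF6 was at 1, DCLK1 and PIP5K1A were at 0.943, TSTD2 was at 0.886 and ZNF578 was at 0.725, so which genes are named depends on the measure. The 5 genes differed widely in the size of their difference. KLF6, a zinc-finger transcription factor, was at 0.43 (SE 0.14), with 145, 139 and 151 normalised counts against 106, 102 and 115. DCLK1, a microtubule-binding kinase that marks tuft cells of the gut, had 119, 128 and 125 counts against 6, 2 and 12, and its log2 fold change was 3.91 (SE 0.45). ZNF578, a zinc-finger gene, had 60, 78 and 58 counts against 0 in each control library, and TSTD2 and PIP5K1A, a lipid kinase gene, were at 0.13 (SE 0.17) and 0.09 (SE 0.13).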

How the data were processed

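HCT116 RNA was sequenced in 3 CAD-KO2+IR and 3 sgVec+IR libraries, which the labels describe as SMARTER mRNA-seq libraries from Trizol RNA. Reads trimmed with fastp were counted per gene with featureCounts (1.5.0-p3), and the authors deposited these counts without normalization. The aligner, its build and the strand setting behind the counts are not given in the sources used here. The submitters' processing notes name mm10, a mouse build, although the gene identifiers are human. Columns were matched to samples by title, and none was left over.

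Genes were kept by filterByExpr (minimum count 10, minimum total 15), scaled by TMM and compared with edgeR's quasi-likelihood test (edgeR 4.0.16, legacy set to FALSE, R 4.3.3), adjusted by Benjamini-Hochberg. A gene was called where its adjusted p was under 0.05 and its fold 1.5 or more. DESeq2 1.42.0 ran on the 16728 genes with a count, and limma 3.58.1 gave voom with sample weights. Tools were run on simulated counts with known changes. No simulated library stood apart, so the simulation does not show how the tools perform on these libraries. Of 20020 identifiers, 19823 matched GENCODE 29 (GRCh38) without the version, which supplied positions, exon lengths and neighbours. Promoter windows came from RefSeq (GRCh38.p14). Of the 6 members, 4 had a window. Likeness to CPA4 was measured on log2 normalised counts with a prior count of 2.

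The members and lists were chosen with earlier results of these data known. Genes named were the 6 members, DFFB, in each list the called genes or else the fitted genes with the highest and lowest log2 fold change, the genes adjacent to CPA4 and the 5 most like it. A result for 1 gene named by this rule is not reported here. Genes outside this rule are shown for their role beside a member. Alternatives were other tools, normalizations and filters, a replicate block, and each library left out. Level orders by transcript length and group overlaps without the libraries that stood apart were chosen after seeing the data. The promoter motifs were not among the planned results.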

Additional observations from a re-analysis of the deposited data

How the results depend on the processing

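The directions of CPA4, CPE and CPQ were the same under all 13 other fits. Their groups did not overlap, so refits of the same libraries could hardly turn them, and this is no separate support. CPA4 was 1.58 to 1.78 with 1 library left out and 1.90 with voom and sample weights, where the weights were 0.0404 for sgVec+IR replicate 3 and 0.154 for CAD-KO2+IR replicate 2. CPQ was −0.54 with voom and sample weights. CPD turned positive with these weights and without sgVec+IR replicate 3, and CPM in those fits and without CAD-KO2+IR replicate 1. CPA4 was called by DESeq2, by voom with sample weights and without sgVec+IR replicate 3. Its values chose the group, so nothing is read from these calls.

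Over all genes, 1 higher and 3 lower calls became 20 and 21 with DESeq2 and 212 and 454 with voom and sample weights. With 1 library left out, higher calls ranged from 0 to 11 and lower calls from 0 to 11: 0 and 0 without any one CAD-KO2+IR library, 0 and 1 without sgVec+IR replicate 1 or 2, and 11 and 11 without sgVec+IR replicate 3. A replicate block gave 0 and 0 (62 and 82 at an unadjusted p under 0.05 and the same fold). Same-numbered libraries deviated with correlations of 0.468, −0.545 and −0.379. Deviations within a group of 3 sum to 0, so these values are tied to each other. They cannot show whether same-numbered libraries were paired. Of the listed genes other than the cell type markers, voom with sample weights called 3 lower, where the other fits called 0. These were CPXM1 (adjusted p = 0.0113), PCSK4 (0.00916) and BDKRB2 (0.00464), each from a list with 7 genes fitted. Over all 12925 genes the same fit called 454 lower, and nothing is read from the 3. DFFB's adjusted p ran from 0.000135 (voom with sample weights) and 0.00187 (DESeq2) to 1.0.

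Without sgVec+IR replicate 3, and without it and CAD-KO2+IR replicate 2, 2 members rather than 1 were higher with no overlap. Without both, 27.9% of all tested genes were higher and 29.5% lower in this way. By the longest coding transcript, CPD took place 2 and CPE place 3 in CAD-KO2+IR, and CPQ place 4 and CPM place 5 in sgVec+IR, each pair with overlapping ranges, and CPD ranked above CPE in sgVec+IR replicate 3. By Spearman's rho, 6 genes in place of 38 reached 0.95, of the 5 named only KLF6. Depth limits CPA6 and the 18 related genes that could not be fitted. The cause of these shifts was not tested.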
